A study of Mus musculus with 10 samples.

Results

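Transfer RNA synthetases and target genes of the transcription factor ATF4 were followed through microglia sorted from adult mouse brain, from mixed glial culture and from cultured brain slices. The members were taken by gene symbol, as *Farsa*, *Farsb*, *Eprs* and every other symbol made of a capital letter, "ars" and an optional 2, together with *Atf4* and 11 genes linked to it (*Ddit3*, *Chac1*, *Trib3*, *Sesn2*, *Asns*, *Phgdh*, *Psat1*, *Psph*, *Shmt2*, *Mthfd2* and *Aldh18a1*). This gave 49 of the 18292 gene symbols in the data, made up of 20 synthetases named for the cytosol, 17 named for mitochondria, 5 stress regulators with *Atf4* itself and 7 enzymes of amino acid and one-carbon metabolism. All 49 were listed in 9 libraries and 46 in slice 1 week replicate 2, and all 49 passed the filter on low counts. The study compared 5 groups of C57BL/6 cells, each with 2 libraries of single cells (10x Genomics 3′ chemistry, in which each molecule is counted once through a unique molecular identifier, UMI). Adult cells were taken from whole brain of mice aged 10 weeks or more without culture. The *in vitro* cells came from cortices of pups at postnatal day 2, grown as mixed glia in DMEM with horse and fetal bovine serum, pyruvate and glutamine, from which microglia were collected at day 22. Slices were cut from pups at postnatal day 1 to 4, without cerebellum and olfactory bulb, and were kept for 1 day, 1 week or 3 weeks in a medium of which BME was the largest part, with horse serum, a glutamine source, N2 supplement and human PDGF, and slices were pooled where needed. Per the labels, the cells of each group were sorted as live and CD11b positive with an intermediate level of CD45. No group held uncultured pup microglia, so the age of the donors and the culture cannot be told apart in any comparison with adult. Adult brain and slices were homogenized and separated on Percoll, while *in vitro* microglia were collected from the culture medium. Slices were also kept at a lower temperature than mixed glia. Between *in vitro* and slice cells the medium, the format, the brain region, the temperature and the isolation cannot be told apart. *In vitro* and slice 3 weeks cells both came from pups and were cultured for about 3 weeks.

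A tRNA synthetase joins an amino acid to its tRNA, and for most amino acids the cytosolic and the mitochondrial enzyme are encoded by separate nuclear genes (*Gars* and *Kars* each serve both compartments). When an amino acid is short, uncharged tRNA activates the kinase GCN2 (*Eif2ak4*), and endoplasmic reticulum stress, viral RNA or lack of haem activate its relatives PERK (*Eif2ak3*), PKR (*Eif2ak2*) and HRI (*Eif2ak1*). Each phosphorylates the initiation factor eIF2, which lowers translation in general while more ATF4 protein is made from its messenger RNA. ATF4 then turns on genes for amino acid synthesis and uptake, for many cytosolic synthetases and for regulators such as CHOP. Messenger RNA levels do not report the amount of ATF4 protein or of phosphorylated eIF2, neither of which was measured here.

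The libraries held 61 to 3799 cells after filtering and 385373 to 39689540 UMIs, with the fewest at slice 1 week (148 and 61 cells). Levels are given as counts per 1000000 UMIs (CPM) after scaling by TMM factors, and differences as log2 fold changes ± SE from edgeR's quasi-likelihood test on counts summed per library, with p-values adjusted by Benjamini and Hochberg over the 12157 genes tested. A gene is said to have risen or fallen where the adjusted p was under 0.05 and the fold over 1.5. A level in such sums is a share of all UMIs of a library. Fewer cells that express a gene and less RNA per cell therefore cannot be told apart. Depth per cell also differed, with a median of 3257 and 1858 UMIs in the adult libraries against 12858 and 13966 *in vitro*. Slice libraries had medians between 5266 and 8335. A gene that fell thus had a smaller share, which need not mean fewer of its UMIs per cell. Levels per cell and the cause of this gap in depth were not tested. The summed CPM of 10 microglia markers (marker sums are scaled by library size alone) ran from 8278 to 9162 at slice 1 day and from 9941 to 11638 *in vitro*, against 51825 to 52693 in adult, with 15452 and 18021 at slice 1 week and 30104 and 24530.0 at slice 3 weeks. Macrophage and monocyte markers (8 genes) summed to 4314 to 4501 CPM *in vitro* against 12.1 to 16.3 in adult, to 413 and 386 in the 1 day slices, to 591 and 314 in the 1 week slices and to 169.8 and 128 in the 3 week slices. Calls above adult were made for 8 of these 8 markers in the 1 day slices, 8 in the 1 week slices, 4 in the 3 week slices and 5 *in vitro*. The shares of all genes tested were 24.9%, 15.0%, 17.9% and 22.4%. In slice 1 week replicate 2 4 of the 8 markers had no UMI. Cells with more neutrophil than microglia marker UMIs made up 15.1% and 28.5% of the slice 1 day libraries and 35.1% and 1.64% of the slice 1 week libraries, and none elsewhere, so counts at these times are also given without them. Hemoglobin genes stood out in adult replicate 1 (1686 CPM) and slice 1 day replicate 1 (3093 CPM). Markers of other brain cells were low but moved with the groups. The 3 oligodendrocyte precursor markers summed to 10.4 and 15.4 CPM in the 1 day slices and 29.4 and 39.8 in the 3 week slices against 0.0807 and 0.147 in adult, and the 7 neuron markers to 60.1 and 31.1 in the 1 week slices against 1.53 and 2.21. Of 4 oligodendrocyte markers tested 3 were called higher in the 3 week slices and 1 lower. The part of RNA from these cells, from macrophages and monocytes or from red blood cells in the differences with adult, slices included, was not tested. Libraries shared 226 cell barcodes, at most 2.94% of the smaller library of a pair.

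Many members rose in slice microglia at 1 day and 3 weeks, while *in vitro* microglia showed a mixed picture. At slice 1 day 23 members were higher and 2 lower than in adult, where 24.9% of all genes tested were called higher and 25.3% lower. At slice 3 weeks 21 were higher and 1 lower, beside 17.9% and 17.5% of all genes. The slice 1 week libraries, which are the smallest, gave 7 higher and 5 lower, beside 15.0% and 13.6%. *In vitro* microglia had 6 higher and 8 lower than adult, beside 22.4% and 28.5% of all genes. That split moved with the scaling, as did that of all genes. It was 9 and 8 with RLE size factors (24.0% and 26.7% of all genes), 10 and 8 with DESeq2 (23.4% and 25.4%) and 3 and 17 with library size alone (16.6% and 38.8%). Leaving out single libraries moved it too, for members and for all genes. With library size alone the splits at slice 1 week and 3 weeks were 6 and 7 (12.5% and 20.6% of all genes), and 16 and 3 (14.0% and 25.2%). Without the neutrophil-rich cells 27 members were higher and 1 lower at 1 day, beside 25.9% and 23.5% of all genes in that fit. At 1 week they were 7 and 4, beside 13.8% and 11.0%. Against slice 3 weeks, *in vitro* microglia had 22 of 49 members lower and none higher, beside 19.9% and 13.3% of all genes. Among the members that were higher *in vitro* in this comparison, 1 had an unadjusted p under 0.05 in edgeR's test (*Farsb*, 0.40 ± 0.17), and DESeq2 called none of them either.

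**Figure D1:**
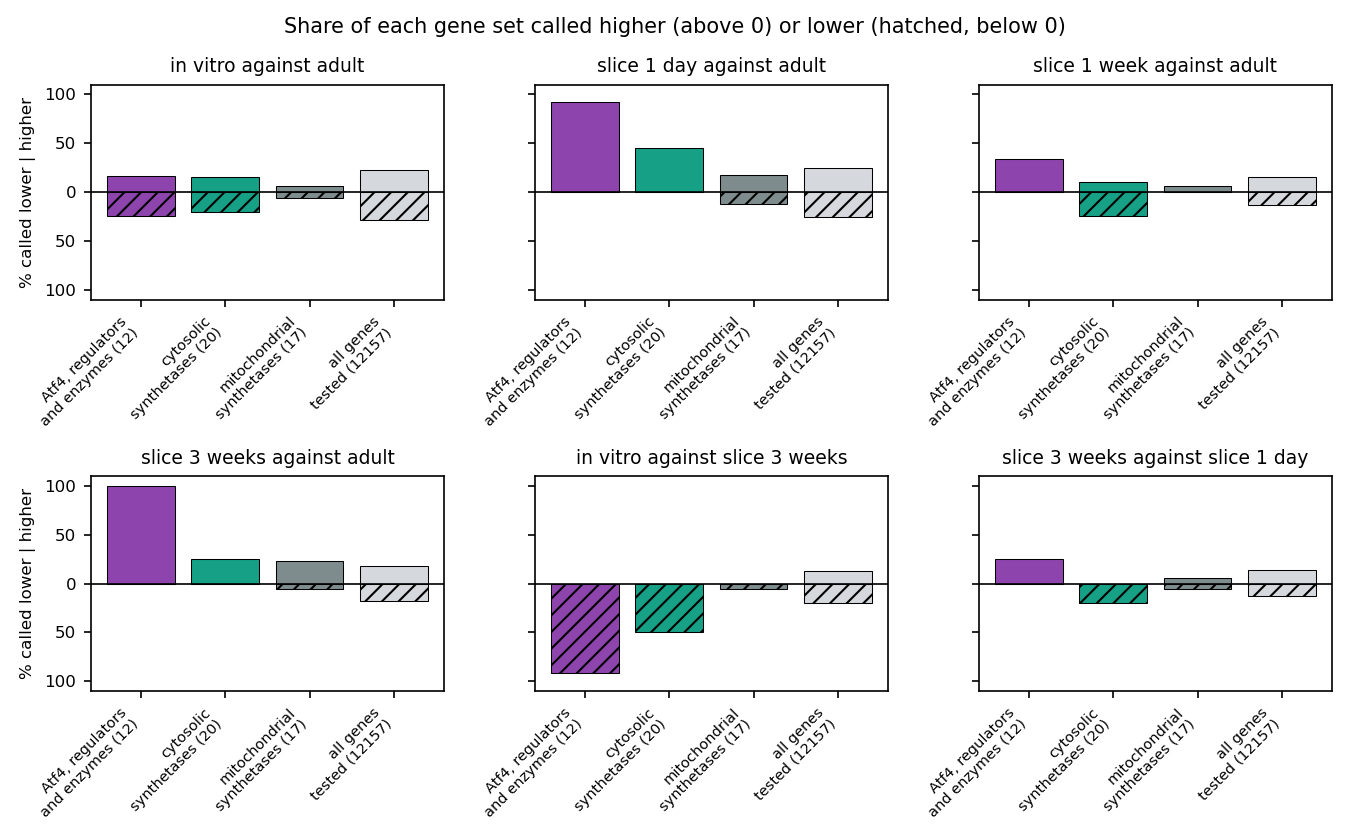
Percent of the 12 genes of *Atf4*, stress regulators and enzymes, of the 20 cytosolic and of the 17 mitochondrial synthetases that were called higher (bars above 0) or lower (hatched bars below 0) in each comparison, beside all 12157 genes tested. The 12 genes reach 11 of 12 at slice 1 day and 12 of 12 at slice 3 weeks against adult, while the mitochondrial synthetases stay below 25% in every comparison.

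*Atf4* and its 4 regulator targets were all higher than adult at slice 1 day and at slice 3 weeks, beside 24.9% and 17.9% of all genes. Neither *Atf4* nor any of these targets was called *in vitro* in the fit reported. *Atf4* (chromosome 15, 80255184 to 80257541, GRCm38) was at 71.2 and 43.5 CPM in the adult libraries, 36.1 and 39.7 in the *in vitro* libraries, 177 and 142 at slice 1 day, 101 and 53.7 at slice 1 week and 97.4 and 132 at slice 3 weeks. Both 1 day libraries and both 3 week libraries lay above both adult libraries, and both *in vitro* libraries lay below them. Over all genes tested, 38.4% had both 1 day libraries and 31.5% both 3 week libraries above both adult libraries, and 45.7% had both *in vitro* libraries below them. The rise was 1.46 ± 0.28, adjusted p = 0.00128 at 1 day and 1.00 ± 0.27, adjusted p = 0.0148 at 3 weeks, and the *in vitro* difference of -0.60 ± 0.27, adjusted p = 0.0813 did not pass. *Ddit3*, which encodes CHOP, a factor of prolonged stress, was at 38.1 and 33.1 CPM in the adult libraries, 25.2 and 23.7 in the *in vitro* libraries, 101 and 78.9 at slice 1 day, 59.3 and 20.5 at slice 1 week and 51.2 and 84.1 at slice 3 weeks. As with *Atf4*, the 1 day and 3 week libraries lay above and the *in vitro* libraries below both adult libraries, and *Ddit3* rose by 1.33 ± 0.29 at 1 day and 0.93 ± 0.29 at 3 weeks (log2). With library size alone both *Atf4* and *Ddit3* were called lower *in vitro*, and *Atf4* also without cycling cells (-0.70) and without adult replicate 2 (-0.91), against -0.10 without adult replicate 1.

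*Chac1*, a glutathione-degrading enzyme, and *Trib3*, a pseudokinase that restrains the same pathway, had low counts in adult cells (8 and 6 UMIs for *Chac1*, 4 and 9 for *Trib3*). *Chac1* was at 0.586 and 0.773 CPM in the adult libraries, 0.385 and 0.365 in the *in vitro* libraries, 5.77 and 4.22 at slice 1 day, 1.98 and 0 at slice 1 week and 5.04 and 10.2 at slice 3 weeks. Both 1 day and both 3 week libraries were above every adult and *in vitro* library, while slice 1 week replicate 2 held no *Chac1* UMI, where 3 counts would be 7.68 CPM. The log2 fold change was 2.86 ± 0.52, adjusted p = 0.00105 at 1 day and 3.55 ± 0.49, adjusted p = 0.000341 at 3 weeks. *Trib3* was at 0.293 and 1.16 CPM in the adult libraries, 2.15 and 2.02 in the *in vitro* libraries, 56.6 and 27.7 at slice 1 day, 23.7 and 2.56 at slice 1 week and 15.1 and 34.8 at slice 3 weeks. Every slice library lay above every adult and *in vitro* library, although slice 1 week replicate 2 did so with 1 UMI. *Trib3* rose by 6.03 ± 0.71, adjusted p = 6.73e-05 at 1 day, by 4.73 ± 1.01, adjusted p = 0.00585 at 1 week and by 5.33 ± 0.71, adjusted p = 0.000265 at 3 weeks, and the *in vitro* difference was 1.72 ± 0.81, adjusted p = 0.0945. *Sesn2* (sestrin 2, a leucine sensor upstream of mTORC1) was at 6.01 and 7.73 CPM in the adult libraries, 12 and 9.65 in the *in vitro* libraries, 23.3 and 19.5 at slice 1 day, 8.89 and 2.56 at slice 1 week and 15.9 and 23.4 at slice 3 weeks. Slice 1 day and 3 weeks lay above the other groups, with rises of 1.64 ± 0.28 and 1.55 ± 0.27 over adult, and the slice 1 week libraries overlapped adult. *In vitro* *Sesn2* was at 0.67 ± 0.27, adjusted p = 0.0525, just short of the threshold, and it was called higher with RLE size factors (0.74), DESeq2 (0.74), no filter on low counts (0.84), all barcodes (0.77), and without cycling cells (0.79), neutrophil-rich cells (0.77), both slice 1 week libraries (0.79) or any of 6 single libraries. *Trib3* was called higher *in vitro* with DESeq2, with no filter and without either slice 3 weeks library.

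The enzymes did not share 1 pattern *in vitro*, where 2 of 7 rose and 3 fell, beside 22.4% and 28.5% of all genes. At slice 1 day 6 of 7 rose and at slice 3 weeks 7 of 7, beside 24.9% and 17.9% of all genes. *Asns* (asparagine synthetase, chromosome 6, 7675169 to 7693254) was at 1.17 and 2.06 CPM in the adult libraries, 10.4 and 10.7 in the *in vitro* libraries, 48.5 and 47.2 at slice 1 day, 33.6 and 0 at slice 1 week and 44.1 and 46 at slice 3 weeks. All libraries of the *in vitro*, 1 day and 3 week groups were above both adult libraries, and the *in vitro* level stood between adult and slice. The rise was 2.78 ± 0.49, adjusted p = 0.000736 *in vitro*, 4.96 ± 0.49, adjusted p = 2.19e-05 at 1 day and 4.88 ± 0.49, adjusted p = 4.99e-05 at 3 weeks, the last a 29.3-fold difference. At 1 week the call (3.87 ± 0.67, adjusted p = 0.00185) rested on replicate 1, since replicate 2 held no *Asns* UMI, and without replicate 1 the fitted value was -7.41 with an adjusted p = 0.546.

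Serine is made from a glycolytic intermediate by PHGDH, PSAT1 and PSPH in turn, and *in vitro* the genes of the first and second steps went different ways. *Phgdh* (chromosome 3, 98313170 to 98339990) was at 171 and 186 CPM in the adult libraries, 2.79 and 2.05 in the *in vitro* libraries, 146 and 140.3 at slice 1 day, 126 and 125 at slice 1 week and 317 and 239.8 at slice 3 weeks. The *in vitro* libraries were far below all others, with 87 and 73 UMIs among 33957132 and 39689540, and the 3 week libraries were the highest. *Phgdh* fell by 6.20 ± 0.22 *in vitro* (adjusted p = 2.97e-08), a 73.7-fold difference, and rose by 0.64 ± 0.17, adjusted p = 0.0141 at 3 weeks, while the differences of -0.32 ± 0.17 at 1 day and -0.51 ± 0.19 at 1 week did not pass. *Psat1* (chromosome 19, 15904678 to 15947337) was at 11.9 and 12.1 CPM in the adult libraries, 25.3 and 33.1 in the *in vitro* libraries, 105 and 134 at slice 1 day, 94.9 and 151 at slice 1 week and 195 and 206 at slice 3 weeks. Every cultured library exceeded both adult libraries, the *in vitro* ones least. The log2 fold changes were 1.29 ± 0.22, adjusted p = 0.000605 *in vitro*, 3.32 ± 0.23, adjusted p = 2.78e-06 at 1 day, 3.31 ± 0.25, adjusted p = 1.38e-05 at 1 week and 4.07 ± 0.24, adjusted p = 1.98e-06 at 3 weeks, where the fold was 16.8. *Psph* was at 16.3 and 17 CPM in the adult libraries, 18.1 and 20.9 in the *in vitro* libraries, 26.2 and 27.1 at slice 1 day, 19.8 and 38.4 at slice 1 week and 29.1 and 26.4 at slice 3 weeks. The rises were small, at 0.68 ± 0.20 at 1 day and 0.74 ± 0.19 at 3 weeks.

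The mitochondrial folate enzymes use serine to supply one-carbon units. *Shmt2*, which splits serine into glycine, was at 16.2 and 17 CPM in the adult libraries, 18.7 and 20.1 in the *in vitro* libraries, 48.8 and 67.7 at slice 1 day, 29.6 and 30.7 at slice 1 week and 50.2 and 46.2 at slice 3 weeks. *In vitro* libraries stayed near adult and every slice library lay above both, with rises of 1.82 ± 0.17 at 1 day, 0.86 ± 0.24 at 1 week and 1.54 ± 0.17 at 3 weeks. *Mthfd2*, the next enzyme, was at 32.6 and 39 CPM in the adult libraries, 14.8 and 19 in the *in vitro* libraries, 71.6 and 71.1 at slice 1 day, 38.5 and 25.6 at slice 1 week and 108 and 128 at slice 3 weeks. Here the *in vitro* libraries were below and the 1 day and 3 week libraries above both adult libraries, and *Mthfd2* fell by 1.08 ± 0.18 *in vitro* (adjusted p = 0.000488) and rose by 1.72 ± 0.18, adjusted p = 6.23e-05 at 3 weeks. *Aldh18a1*, which starts proline synthesis from glutamate, was at 9.16 and 14.2 CPM in the adult libraries, 4.98 and 6.45 in the *in vitro* libraries, 19.7 and 24.9 at slice 1 day, 13.8 and 7.68 at slice 1 week and 21.6 and 19.8 at slice 3 weeks. It fell by 1.01 ± 0.25 *in vitro* and rose by 0.97 ± 0.26 at 1 day and 0.84 ± 0.25 at 3 weeks, and the 1 week libraries spanned the adult ones.

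**Figure D2:**
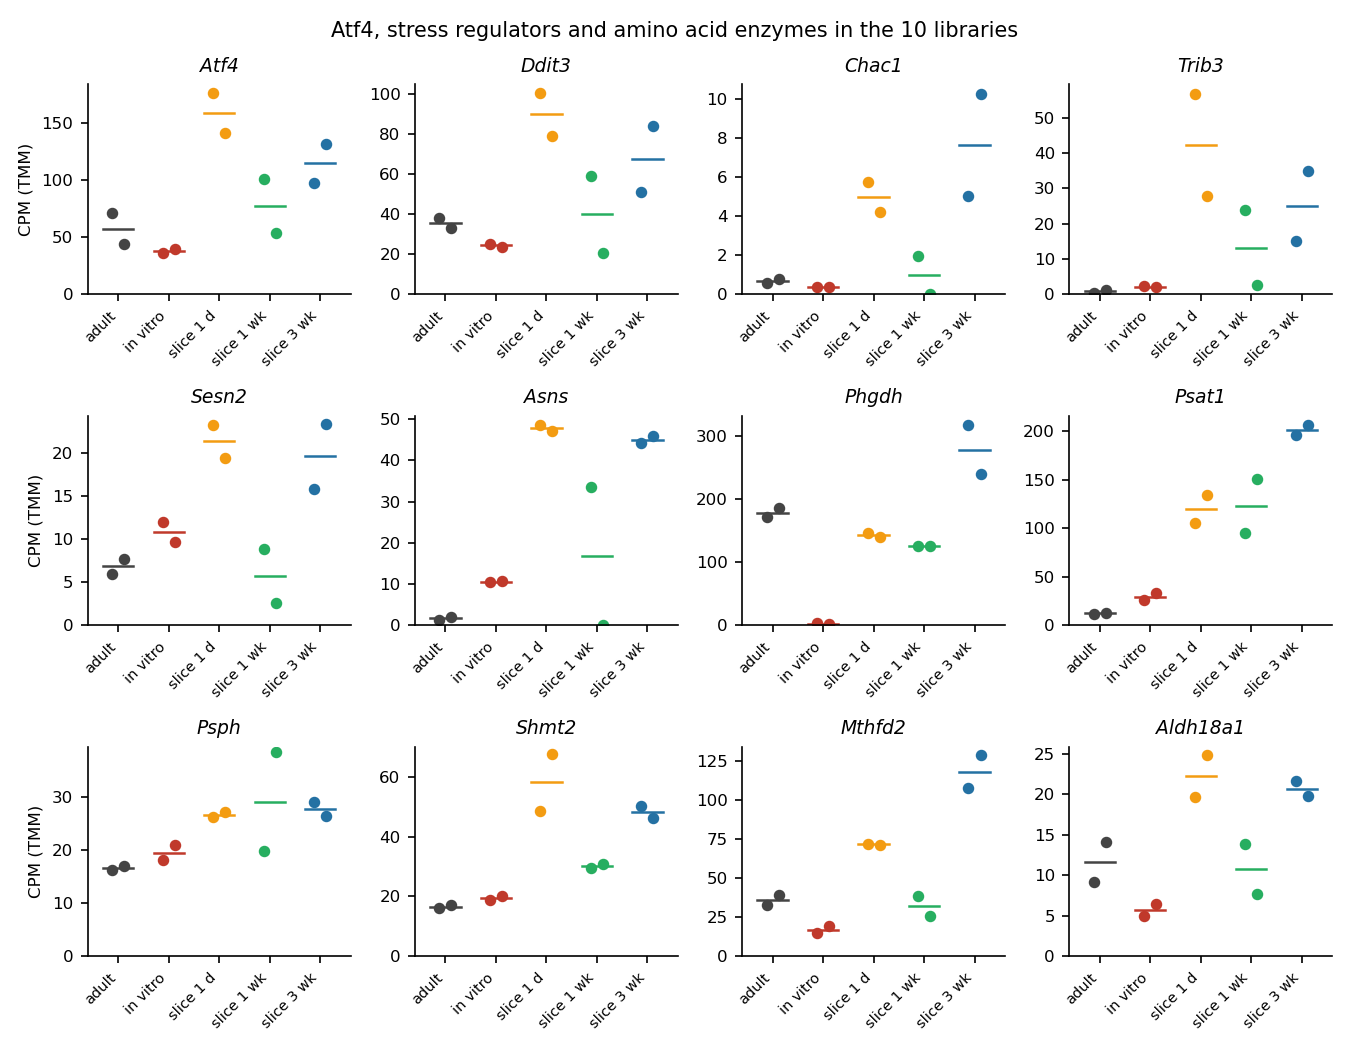
Level of each of the 12 genes in the 10 libraries, in TMM-scaled CPM on linear axes that start at 0. Points are libraries (replicate 1 on the left of each pair) and lines are means of 2. Slice 1 day and slice 3 weeks lie above adult for 11 and 12 genes, the *in vitro* points of *Phgdh* lie near 0, and slice 1 week replicate 2 is at 0 for *Chac1* and *Asns*.

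Over these 12 genes the median log2 fold change was 1.55 at slice 1 day, 0.58 at 1 week and 1.54 at 3 weeks against adult, where all genes tested had medians of -0.06, -0.08 and -0.03. *In vitro* the median of the 12 was -0.16 beside -0.11 for all genes, with 2 higher and 3 lower, beside 22.4% and 28.5% of all genes. With library size alone, 8 of the 12 were called higher at 3 weeks, beside 14.0% of all genes. Some of these calls rested on 1 library. At 3 weeks *Ddit3* lost its call without adult replicate 1, adult replicate 2 or slice 3 weeks replicate 2 (0.58 to 1.09), *Atf4* without the latter pair (0.69 to 0.81), *Psph* without either adult library (0.76 to 0.77), *Phgdh* without adult replicate 1 or slice 3 weeks replicate 1 (0.47 to 0.64) and *Aldh18a1* without adult replicate 1 (0.60). At 1 day *Psph* was lost without either adult library or slice 1 day replicate 2 (0.69 to 0.72), and *Aldh18a1* without adult replicate 1 or slice 1 day replicate 2 (0.71 to 0.83). At 1 week *Trib3* was lost without replicate 1 (2.05), and *Shmt2* without any 1 of the adult or slice 1 week libraries (0.80 to 0.92). The *in vitro* fall of *Aldh18a1* was lost without adult replicate 2 or *in vitro* replicate 1 (-0.71 to -0.68). *Chac1*, *Trib3*, *Sesn2*, *Asns*, *Psat1*, *Shmt2* and *Mthfd2* kept their calls at 1 day and 3 weeks whichever library was left out. Adult replicate 1 and slice 3 weeks replicate 1 carry a study label of their own. With this label as a covariate 12 of the 12 genes were called higher at 3 weeks, beside 18.2% of all genes. The difference of *Atf4* between slice 3 weeks and adult (log2 of CPM + 1) was 0.45 within that label and 1.58 within the other.

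Without the neutrophil-rich cells, 11 of the 12 genes were still higher at 1 day, 4 at 1 week and 12 at 3 weeks. In that fit 25.9%, 13.8% and 19.9% of all genes were higher. *Trib3* was then at 5.90 ± 0.74 at 1 day and 4.32 ± 1.21 at 1 week, *Asns* at 4.93 and 3.21, *Atf4* at 1.44 and 0.39, and *Psat1* at 3.50 and 3.46 (log2 fold change against adult).

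ATF4 binds DNA as a dimer with C/EBP proteins at a composite element, which was searched for as TGATGNAA on both strands (N being any base), from 250 bases before to 50 after each start site of the RefSeq promoters on GRCm38.p6. No other motif was searched, and 1 promoter can hold more than 1 match. Of the 49 members 39 had a promoter in the table, and 8 of these (20.5%) held the element, against 1219 of all 27025 promoters (4.51%). The 3 of these 8 with the largest rises over adult are shown, each as 28 bases from 5′ to 3′ on the strand of its gene, with the 8 bases of the element in capitals, because among members with a match these had the largest rises.
Trib3: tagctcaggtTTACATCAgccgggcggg
Asns: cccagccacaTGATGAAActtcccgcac
Chac1: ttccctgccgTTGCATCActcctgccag
The *Trib3* window is chr2:152344029-152344056 on the minus strand, 14 bases after the start site in RefSeq. The *Asns* window is chr6:7693215-7693242 on the minus strand, 23 bases before it, and the *Chac1* window is chr2:119351039-119351066 on the plus strand, 193 bases before it. The starts in GENCODE, used for the positions of genes here, differ from these, and counted from them the elements of *Trib3* and *Chac1* lie 14 and 180 bases before the start and that of *Asns* 22 bases after it. The other 5 were all cytosolic synthetases, *Aars* with a pair of matches and *Gars*, *Iars*, *Tars* and *Yars* with 1 each, out of 13 cytosolic synthetases with a promoter (38.5%). Members not matched to a promoter included *Cars*, *Hars*, *Lars*, *Nars*, *Rars*, *Vars*, *Wars*, *Hars2* and *Pars2*. No match stood in the 14 promoters of mitochondrial synthetases, nor in those of *Psat1*, *Phgdh*, *Shmt2* or *Mthfd2*. Matches did not go with 1 direction *in vitro*, where *Asns* rose while *Aars* and *Yars* fell. At slice 1 day and 3 weeks none of the 8 genes fell. A match is a run of letters and no evidence of binding, and a missing one says only that these letters are not in this window.

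Part of the cytosolic synthetases were higher than adult in slices, and *in vitro* a few were higher and a few lower. Of 20, 9 were higher than adult at slice 1 day (*Eprs*, *Farsb*, *Gars*, *Hars*, *Kars*, *Lars*, *Qars*, *Rars* and *Sars*) and 5 at 3 weeks (*Eprs*, *Gars*, *Iars*, *Lars* and *Sars*), with none lower, which is 45% and 25% of the 20 beside 24.9% and 17.9% of all genes. At slice 1 week *Qars* and *Sars* were higher and *Aars*, *Cars*, *Mars*, *Nars* and *Yars* lower, and *in vitro* *Farsb*, *Qars* and *Rars* were higher and *Aars*, *Cars*, *Mars* and *Yars* lower. The *in vitro* shares of 15% and 20% lie under the 22.4% and 28.5% of all genes. The medians of the 20 were 0.62, 0.37, -0.03 and -0.04 at 1 day, 3 weeks, 1 week and *in vitro*, beside -0.06, -0.03, -0.08 and -0.11 for all genes. Reads of *Aars* are uncertain, because *Exosc6* overlaps it on the same strand.

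*Eprs*, which charges both glutamate and proline tRNA and sits in the multisynthetase complex, was at 49.8 and 61.7 CPM in the adult libraries, 58.3 and 63.1 in the *in vitro* libraries, 131 and 128 at slice 1 day, 83 and 87 at slice 1 week and 121 and 241 at slice 3 weeks. All slice libraries were above adult, and slice 3 weeks replicate 2 was far above its partner. The rise was 1.21 ± 0.26, adjusted p = 0.00294 at 1 day and 1.71 ± 0.26, adjusted p = 0.000656 at 3 weeks. *Sars*, for serine, was at 60.5 and 56.9 CPM in the adult libraries, 79.7 and 83.3 in the *in vitro* libraries, 128 and 125 at slice 1 day, 109 and 115 at slice 1 week and 134 and 188 at slice 3 weeks. No cultured library overlapped adult, and *Sars* rose by 1.11 ± 0.17 at 1 day, 0.92 ± 0.18 at 1 week and 1.46 ± 0.17, adjusted p = 0.000104 at 3 weeks, while the *in vitro* difference of 0.47 ± 0.16 missed the fold limit.

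*Mars*, *Cars* and *Yars*, for methionine, cysteine and tyrosine, formed the other pattern. *Mars* was at 54.9 and 65.6 CPM in the adult libraries, 22.1 and 24.7 in the *in vitro* libraries, 47.7 and 50.2 at slice 1 day, 37.6 and 35.8 at slice 1 week and 67.1 and 70.8 at slice 3 weeks. *Cars* was at 42.1 and 49.3 CPM in the adult libraries, 18 and 18.2 in the *in vitro* libraries, 36.7 and 43.1 at slice 1 day, 23.7 and 25.6 at slice 1 week and 56.1 and 56.1 at slice 3 weeks. *Yars* was at 38 and 38.1 CPM in the adult libraries, 15.9 and 16.5 in the *in vitro* libraries, 33 and 42.6 at slice 1 day, 10.9 and 25.6 at slice 1 week and 37.3 and 39.2 at slice 3 weeks. In each the *in vitro* libraries lay below adult and below slice 3 weeks, and slice 3 weeks was close to adult or above it. *In vitro* they fell by 1.36 ± 0.13, 1.33 ± 0.14 and 1.23 ± 0.19, with adjusted p = 1.45e-05, 1.91e-05 and 0.000337. At slice 1 week the falls were 0.70, 0.91 and 1.29, and at slice 3 weeks the differences of 0.20 ± 0.13, 0.30 ± 0.14 and 0.01 ± 0.19 did not pass.

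Other cytosolic synthetases were called as well. At 1 day *Kars* rose by 1.15 ± 0.17, *Gars* by 1.14 ± 0.18, *Farsb* by 1.12 ± 0.18, *Rars* by 1.05 ± 0.13, *Qars* by 0.84 ± 0.16, *Hars* by 0.77 ± 0.20 and *Lars* by 0.74 ± 0.21, and at 3 weeks *Lars* rose by 1.27 ± 0.21, *Gars* by 1.01 ± 0.17 and *Iars* by 1.01 ± 0.32. *Qars* was also higher *in vitro* (0.82 ± 0.15) and at 1 week (1.18 ± 0.18). With library size alone the *in vitro* calls of *Farsb*, *Qars* and *Rars* were lost, and at 3 weeks that of *Iars*. Other differences were not called as reported but passed in most alternatives, as *Kars* was called higher *in vitro* in 18 of 22 alternatives, and *Qars* and *Rars* at 3 weeks in 16 and 15. *Dars*, *Farsa*, *Tars*, *Vars* and *Wars* were called in no comparison with adult, with differences between -0.41 and 0.53. Calls rested on 1 library for *Hars* (lost at 1 day without adult replicate 2 or slice 1 day replicate 2, 0.56 to 0.71), *Lars* (at 1 day without adult replicate 1 or slice 1 day replicate 2, 0.71 to 0.74) and *Iars* (at 3 weeks without either adult library or slice 3 weeks replicate 2, 0.52 to 1.12). At 1 week *Cars* (-0.81) and *Yars* (-0.54) were lost without replicate 1, *Mars* without replicate 1 or adult replicate 2 (-0.72 to -0.58), and *Nars* without replicate 2 or adult replicate 2 (-0.67 to -0.61). Without the neutrophil-rich cells 12 were higher at 1 day (25.9% of all genes), 8 at 3 weeks (19.9%), and 2 higher and 4 lower at 1 week (13.8% and 11.0%).

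**Figure D3:**
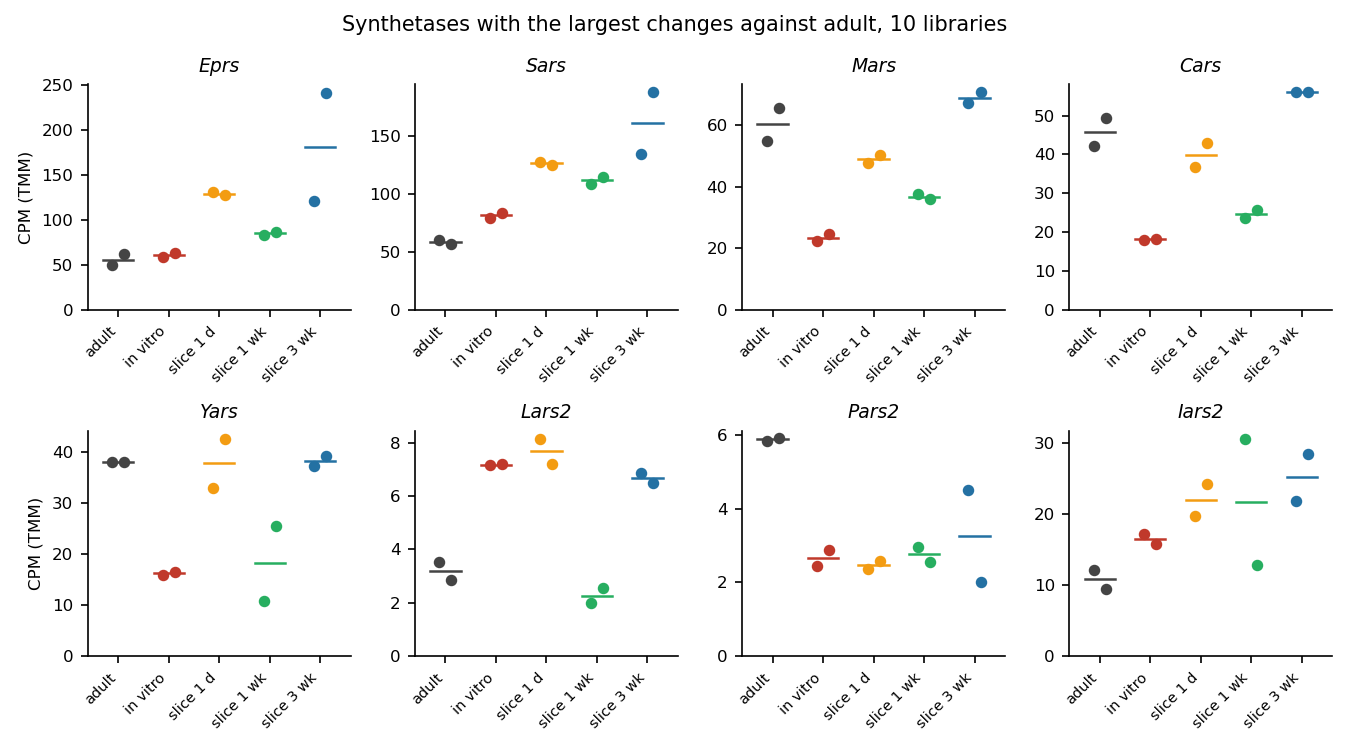
Levels of the 5 cytosolic and 3 mitochondrial synthetases with the largest called change against adult, in TMM-scaled CPM on linear axes from 0, with libraries as points and means of 2 as lines. *Eprs* and *Sars* are above adult in all 6 slice libraries, *Mars*, *Cars* and *Yars* are lowest *in vitro* or at slice 1 week, and *Pars2* is highest in adult.

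Of the 17 mitochondrial synthetases 3 were higher and 2 lower at slice 1 day (17.6% and 11.8%, beside 24.9% and 25.3% of all genes), and 4 and 1 at 3 weeks (23.5% and 5.88%, beside 17.9% and 17.5%). At 1 week 1 was higher and 0 lower, beside 15.0% and 13.6%, and *in vitro* 1 and 1, beside 22.4% and 28.5%. Without the neutrophil-rich cells 4 were higher and 1 lower at 1 day, beside 25.9% and 23.5%. *Lars2*, for leucine, was at 3.52 and 2.83 CPM in the adult libraries, 7.16 and 7.18 in the *in vitro* libraries, 8.13 and 7.21 at slice 1 day, 1.98 and 2.56 at slice 1 week and 6.86 and 6.47 at slice 3 weeks. *In vitro*, 1 day and 3 week libraries all lay above adult, by 1.16 ± 0.23, adjusted p = 0.00176, 1.24 ± 0.25, adjusted p = 0.00205 and 1.04 ± 0.24, adjusted p = 0.00648, while the 1 week libraries, with 2 UMIs and 1 UMI, lay below. Ribosomal RNA-like transcripts (4 genes) summed to 320.4 and 142 CPM in adult, 832 and 915 *in vitro*, 356 and 1139 in the 1 day slices, 814 and 394 in the 1 week slices and 498 and 756 in the 3 week slices, so all cultured libraries were above adult. Of the 3 tested, 2 were called higher *in vitro*, 1 at 1 day and 2 at 1 week, the differences at 3 weeks being 1.02 to 1.87 with 2 of 3 at an unadjusted p under 0.05, and their part in the differences was not tested. *Iars2*, for isoleucine, was at 12.2 and 9.40 CPM in the adult libraries, 17.1 and 15.8 in the *in vitro* libraries, 19.7 and 24.2 at slice 1 day, 30.6 and 12.8 at slice 1 week and 21.9 and 28.5 at slice 3 weeks. All cultured libraries exceeded both adult libraries, and it rose by 1.03 ± 0.25 at 1 day, 1.18 ± 0.34 at 1 week and 1.22 ± 0.24 at 3 weeks, with 0.60 ± 0.24 *in vitro* not passing as reported, although it was called in 13 of 22 alternatives. *Pars2*, for proline, was at 5.86 and 5.92 CPM in the adult libraries, 2.44 and 2.89 in the *in vitro* libraries, 2.36 and 2.58 at slice 1 day, 2.96 and 2.56 at slice 1 week and 4.53 and 2.00 at slice 3 weeks. It was highest in adult, and fell by 1.14 ± 0.36 *in vitro* and by 1.24 ± 0.41 at 1 day, calls that were lost without any 1 of the adult or *in vitro* libraries (and at 1 day also without either slice 1 day library), at -1.15 to -0.90 and -1.26 to -1.19. *Nars2* rose by 0.78 ± 0.25 at 1 day and 0.84 ± 0.24 at 3 weeks, while *Hars2* fell by 0.83 ± 0.21 at 1 day and *Sars2* by 0.69 ± 0.25 at 3 weeks. Of these, *Nars2* was lost without either adult library and at 1 day also without slice 1 day replicate 2 (0.63 to 0.89 at 1 day, 0.77 to 0.97 at 3 weeks), and *Hars2* without adult replicate 1 or slice 1 day replicate 2 (-0.67 to -0.57). *Iars2* was lost at 1 day without slice 1 day replicate 2 (0.92) and at 1 week without replicate 1 or adult replicate 2 (0.26 to 1.00), and *Sars2* without any library except those of slice 1 week and slice 3 weeks replicate 1 (-0.70 to -0.56). In all, 10 of the 17 were called in no comparison with adult, and *Cars2* had no UMI in slice 1 week replicate 2. The medians of the 17 lay between -0.24 and -0.06 against adult.

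A direct comparison of the 2 longest cultures set *in vitro* against slice 3 weeks microglia, and all 12 genes of the *Atf4* group had both *in vitro* libraries below both slice libraries, as had 38.6% of all genes tested. Of the 12, 11 were called lower, *Psph* (-0.50 ± 0.19, adjusted p = 0.0542) being the exception. The largest differences were -6.84 ± 0.23 for *Phgdh*, -4.35 ± 0.46 for *Chac1*, -3.61 ± 0.53 for *Trib3*, -2.80 ± 0.18 for *Mthfd2* and -2.78 ± 0.22 for *Psat1*. *Atf4* itself was -1.60 ± 0.28, adjusted p = 0.00135, and *Asns* -2.10 ± 0.37, adjusted p = 0.00151. DESeq2 did not call *Asns* (-2.07, adjusted p = 0.055), *Tars* or *Nars2* in this comparison. Over all genes 19.9% were called lower. Among cytosolic synthetases 10 of 20 were lower, led by *Cars* (-1.63 ± 0.14), *Eprs* (-1.58 ± 0.26) and *Mars* (-1.56 ± 0.13), followed by *Yars*, *Lars*, *Gars*, *Sars*, *Vars*, *Aars* and *Tars*, and 1 of 17 mitochondrial ones, a share below that of all genes, *Nars2* (-0.66 ± 0.22). Without *in vitro* replicate 1 the calls of *Aars*, *Tars*, *Vars*, *Nars2* and *Sesn2* were lost, *Aars*, *Tars*, *Nars2* and *Sesn2* without replicate 2, *Tars*, *Nars2* and *Sesn2* without slice 3 weeks replicate 2, and *Aars* and *Nars2* without its replicate 1. Leaving out a library of another group cost *Tars* in 4 cases, *Nars2* in 3 and *Aars* in 2. In all these fits the values were still negative, from -0.60 to -0.25 for *Tars*, -0.74 to -0.44 for *Nars2*, -0.96 to -0.49 for *Sesn2* and -0.58 to -0.49 for *Aars*, and -0.64 for *Vars*.

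Between 1 day and 3 weeks in slices few members changed (4 higher and 5 lower, beside 13.9% and 12.8% of all genes). With library size alone there were 3 and 6, beside 11.8% and 15.0%. *Phgdh* (0.96 ± 0.18, adjusted p = 0.00305), *Psat1* (0.75 ± 0.21, adjusted p = 0.021) and *Mthfd2* (0.73 ± 0.17, adjusted p = 0.0115) were among those higher at 3 weeks. *Farsa*, *Farsb*, *Hars* and *Kars* were lower by 0.67 to 0.77, and *Yars2* by 0.62. *Atf4*, *Ddit3*, *Trib3* and *Sesn2* were at -0.47 ± 0.27, -0.40 ± 0.28, -0.70 ± 0.47 and -0.09 ± 0.26, none of which passed. The number of calls moved with single libraries, for members and for all genes. Without slice 1 day replicate 2 no member was lower and 2 were higher, without slice 1 day replicate 1 only *Phgdh* was higher, and without slice 3 weeks replicate 2 there were 2 higher and 3 lower. The shares of all genes called higher and lower in these fits were 5.23% and 6.26%, 8.69% and 9.61%, and 9.53% and 9.10%. The lost calls of lower cytosolic synthetases ran from -0.72 for *Farsa* to -0.43 for *Kars* without slice 1 day replicate 2 and from -0.65 for *Hars* to -0.55 for *Farsa* without slice 3 weeks replicate 2, and *Psat1* stood at 0.58 without slice 1 day replicate 1 and 0.71 without slice 3 weeks replicate 2. The call of *Yars2* was lost without any 1 of the *in vitro* or slice 1 day libraries or slice 3 weeks replicate 1 (-0.66 to -0.56), and that of *Mthfd2* without either slice 1 day library (0.73).

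**Figure D4:**
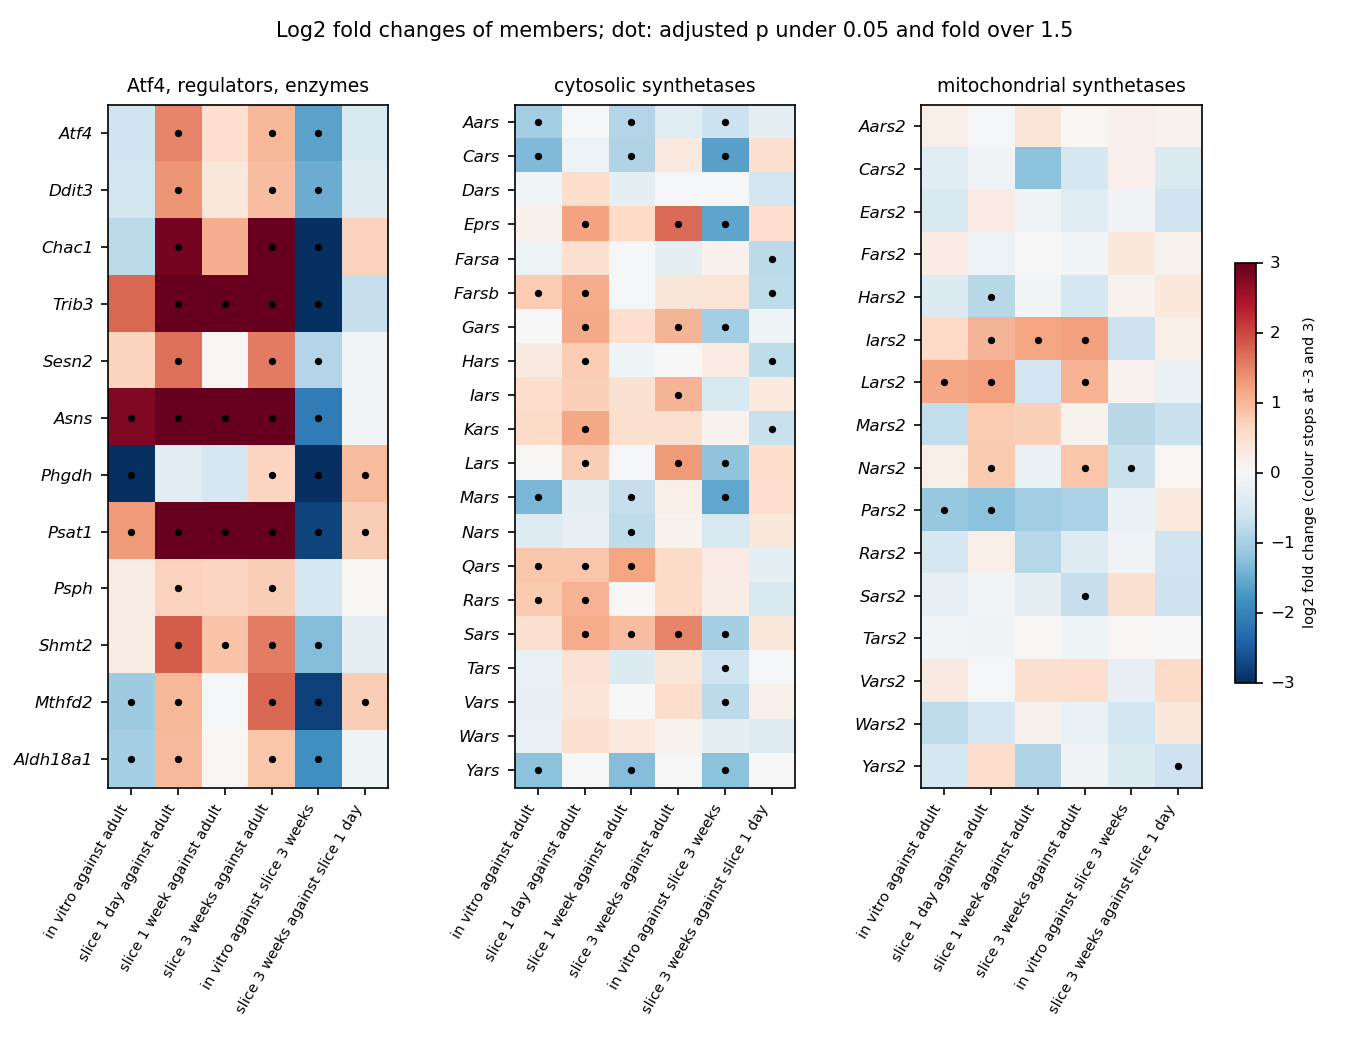
Log2 fold changes of the genes described (rows) in the 6 comparisons (columns), red for higher and blue for lower in the group named first, with the colour ending at -3 and 3 and a dot on each called difference. The *Atf4* group is red at slice 1 day (except *Phgdh*) and 3 weeks and blue for *in vitro* against slice 3 weeks, with 11 of 12 dots there.

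Other genes of the pathway, from lists of its parts, were counted in the same fits, and each count stands beside the shares of all genes called higher and lower, which were 24.9% and 25.3% at slice 1 day, 17.9% and 17.5% at 3 weeks, 15.0% and 13.6% at 1 week and 22.4% and 28.5% *in vitro*. Of 11 further stress response genes tested, 8 were higher and 1 lower at slice 1 day, 6 and 0 at 3 weeks, 4 and 1 at 1 week, and 4 and 3 *in vitro*, so that 72.7% were higher at 1 day and 54.5% at 3 weeks. *Atf3*, a stress-induced transcription factor, was at 12.4 ± 1.39 CPM (SD, n = 2) in adult, 42.8 ± 1.54 *in vitro*, 158 ± 13.6 at 1 day and 126 ± 18.5 at 3 weeks, and *Gdf15*, a stress-induced secreted cytokine, went from 0.138 ± 0.0125 in adult to 11.7 ± 12 at 3 weeks. The adult level of *Gdf15* lies below 3 counts (0.220 and 0.386 CPM in the adult libraries). Its SD at 3 weeks is near the mean. *Atf5* rose by 2.29 ± 0.25 at 3 weeks. *In vitro* *Ddit4* and *Nupr1* had the largest falls, by 3.57 and 1.92. Among 11 amino acid transporters 3 were higher at 1 day (*Slc7a11* by 4.67 ± 0.50, adjusted p = 3.67e-05, *Slc1a5* by 2.67 ± 0.37, *Slc7a1* by 2.03 ± 0.34) and 3 at 3 weeks (*Slc7a1*, *Slc7a6* and *Slc1a5*), with none lower, and 2 higher and 2 lower at 1 week. The 27.3% higher at 1 day is near the share of all genes. *In vitro* 1 was higher and 6 were lower (54.5%). *Slc7a5*, which carries large neutral amino acids and is named here after its values were seen, was at 2.55 ± 0.520 CPM *in vitro* and 37.5 ± 7.20 in adult. Against slice 3 weeks 8 of the 11 were lower *in vitro* and none was higher, beside 19.9% and 13.3% of all genes.

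Among 14 other amino acid and one-carbon enzymes, 5 were higher and 1 lower at 1 day, 7 and 2 at 3 weeks, 4 and 3 at 1 week, and 5 and 6 *in vitro*. *Gpt2*, a mitochondrial alanine transaminase, rose by 3.21 ± 0.24 at 1 day and 2.09 ± 0.24 at 3 weeks, and *Aldh1l2*, a mitochondrial folate enzyme, by 2.32 ± 0.60 at 3 weeks. *Glul*, glutamine synthetase, fell in each culture, by 1.62 *in vitro*, 1.70 at 1 day, 0.98 at 1 week and 1.28 at 3 weeks. *Glul* is abundant in astrocytes, whose 8 markers summed to 148 to 153 CPM in adult and 5.04 to 33.9 in the cultured libraries, and the part of astrocyte RNA was not tested. The 13 eIF2 kinases and regulators gave 2 higher and 3 lower at 1 day and 0 and 1 at 3 weeks, 0 and 2 at 1 week and 2 and 3 *in vitro*. *Eif2ak4*, for GCN2, was called in none of the comparisons (between -1.41 and 0.34; it is named here after its values were seen), and *Eif2ak3*, for PERK, fell by 1.18 at 1 day. Proteins of the synthetase complex and relatives (11 genes) were mixed, with 4 higher and 2 lower at 1 day, 1 and 3 at 3 weeks, 0 and 4 at 1 week and 1 and 4 *in vitro*. ATF6 and IRE1 lead the other arms of the unfolded protein response. Of 18 of their targets 4 were higher (22.2%) and 3 lower at 1 day, 0 and 3 at 3 weeks, 2 and 5 at 1 week and 0 and 6 *in vitro*, and *Herpud1* and *Dnajb9* fell in each culture, at 3 weeks by 1.22 and 1.29. The median of the 18 was 0.09 at 1 day and -0.43 *in vitro*, beside -0.06 and -0.11 for all genes. Without the neutrophil-rich cells 1 target was higher at 3 weeks (19.9% of all genes). The same setting moved some counts of these lists at 1 day and 1 week. In it 25.9% and 13.8% of all genes were higher and 23.5% and 11.0% lower at these times. At 1 day 4 eIF2 regulators were higher. At 1 week 1 gene of the synthetase complex list was lower, 1 transporter was higher and 1 lower, 3 stress response genes were higher, 2 of the other enzymes were lower, and 3 ATF6 and IRE1 targets were lower. Immediate early genes (10 tested), which cell isolation can raise, gave 4 higher and 1 lower at 1 day, 2 and 1 at 3 weeks, 2 and 2 at 1 week and 2 and 3 *in vitro*, and their part in the results was not tested.

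Cell states within a library were compared as a description, with no test, on CPM scaled by library size alone. Cells with at least 3 UMIs of 12 proliferation genes made up 0.342% and 0.255% of the adult libraries and 7.46% to 28.3% of the others. The 7 enzymes were higher in these cells in each library, summing to 1136 and 1079.8 CPM at slice 3 weeks against 656 and 645 in the other cells, to 779 and 660.4 against 414 and 437 at 1 day, and to 146 and 174 against 69.8 and 67.2 *in vitro*. At 3 weeks *Phgdh* was at 532 and 432 CPM in cycling cells and 256 and 209.8 in the others. The 5 stress regulators went the other way at 1 day, at 161 and 202 CPM in cycling cells and 432 and 323 in the others, and *Ddit3* was lower in cycling cells of both 3 week libraries (26.3 against 57.1 and 60.3 against 82.9). Cycling cells were deeper, with a median of 6615 to 18044 UMIs in the 6 *in vitro*, 1 day and 3 week libraries against 5190 to 13031. Without the cycling cells, 10 of the 12 genes were higher and *Phgdh* lower at 1 day (24.7% and 23.1% of all genes). At 3 weeks 11 were higher (17.8% of all genes), and *Phgdh* no longer passed (0.48 ± 0.25, adjusted p = 0.143).

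Neutrophil-rich cells had more of the stress regulators and less of the enzymes than the other cells in the 3 libraries with more than 1 such cell. At slice 1 day the regulators summed to 517 and 471 CPM in them against 369.9 and 222, and the enzymes to 189 and 383 against 504 and 560.2. *Ddit3* was at 207 and 162 CPM in them against 98.6 and 57.4 at 1 day, but went the other way in slice 1 week replicate 1 (48.4 against 57.6). Neutrophil marker UMIs also made up 0.058% and 0.429% of the UMIs of the other cells at 1 day. *Phgdh* is abundant in astrocytes, whose 8 markers summed to 148 to 153 CPM in adult and 5.04 to 5.62 *in vitro*. In cells without any astrocyte marker UMI *Phgdh* was at 181 and 215 CPM in adult, 2.17 and 1.82 *in vitro* and 297 and 219 at slice 3 weeks. The part of free astrocyte RNA in these cells was not tested.

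**Figure D5:**
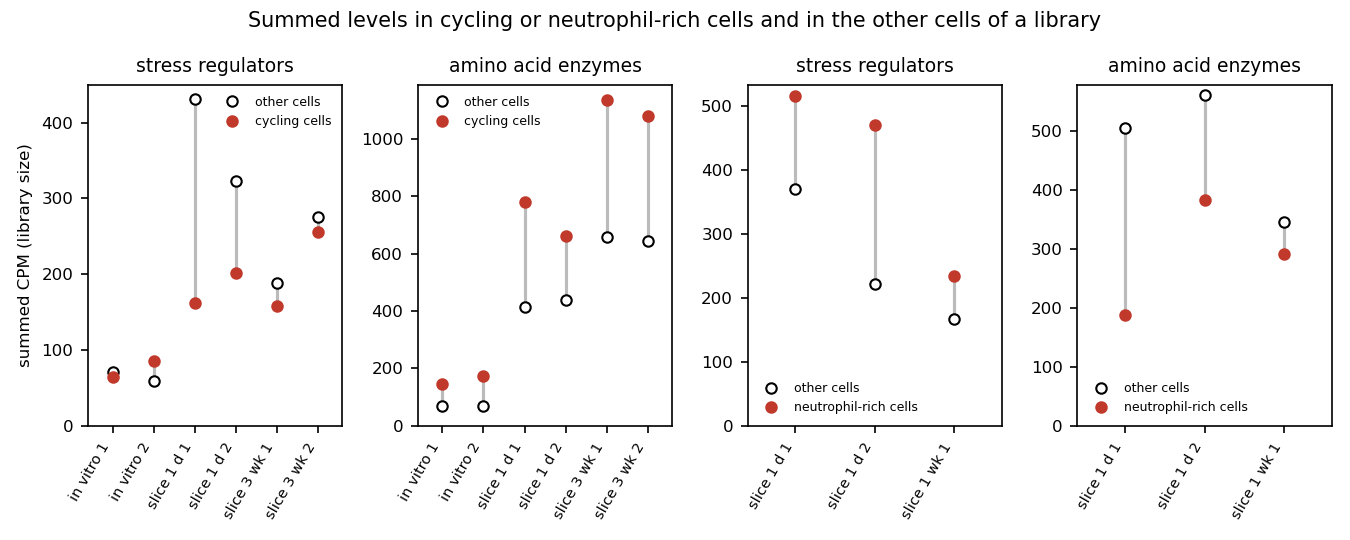
Summed CPM (scaled by library size) of the 5 stress regulators and of the 7 enzymes in cycling cells (left pair of panels) and neutrophil-rich cells (right pair), as filled points, beside the other cells of the same library, as open points. The enzymes are higher in cycling cells in all 6 libraries shown, and the stress regulators are higher and the enzymes lower in neutrophil-rich cells in all 3.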

How the data were processed

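Single-cell libraries of microglia were made with 10x Genomics 3′ v2 chemistry. The deposited counts are UMIs, not normalized, for each barcode and gene, made by the authors with Cell Ranger 1.3.0 on mm10 per the submitters' processing notes, and 1 table was deposited per library. Barcodes with at most 5% mitochondrial UMIs, at least 400 genes and at most 30000 UMIs were kept (19059 of 19637), and no doublet caller was run. For each library the counts of its cells were added up. The 2 libraries of a group come under separate sample entries and are called independent in the study, but no source used here says whether they were separate animals or cultures, so p-values measure the spread between libraries. One model of the 5 groups was fitted by edgeR 4.0.16's quasi-likelihood test (R 4.3.3) with TMM factors and filterByExpr at a minimum count of 10, leaving 12157 genes and 5 residual degrees of freedom, with a biological coefficient of variation of 18.3%. SE is the absolute log2 fold change divided by the square root of the F statistic, and adjusted p-values are Benjamini-Hochberg values over all genes tested. Depth ran from 385373 to 39689540 UMIs, and where a gene had no UMI a floor of 3 counts is given, which covers counting error only.

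The members and gene lists were chosen with earlier results of these data known. Values per library are given for the 12 genes of the *Atf4* group and for the 5 cytosolic and 3 mitochondrial synthetases with the largest change among those called against adult, and of the other lists the 3 largest rises and 2 largest falls per comparison could be named. Gene positions are from GENCODE M21 on GRCm38, and promoters from RefSeq on GRCm38.p6. Alternatives were RLE factors, library size alone, DESeq2 1.42.0, no filter on genes or on cells, cells thinned to 1800 UMIs, cycling cells left out, slice 1 week left out, the study label as a covariate, a replicate block and each library left out. In a test on simulated data for *in vitro* against adult (11708 genes), all genes changed by 4-fold, 58% of those raised 2-fold and 52% of those lowered 2-fold were recovered. In it 50 genes were changed per fold and direction, all above a set mean level. These rates therefore do not cover members with low levels. Counts cover all members, but 1 member is not reported here by name.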

Additional observations from a re-analysis of the deposited data

Results flagged for a closer look

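The 3 enzyme genes *Phgdh*, *Mthfd2* and *Aldh18a1* moved in opposite directions in *in vitro* and slice 3 weeks microglia against adult, each past the threshold on both sides, with the direct difference tested by edgeR's quasi-likelihood test of *in vitro* against slice 3 weeks. *Phgdh* stood at -6.20 *in vitro* and 0.64 at slice 3 weeks on the log2 scale, a difference of -6.84. *Mthfd2* stood at -1.08 and 1.72, a difference of -2.80. *Aldh18a1* stood at -1.01 and 0.84, a difference of -1.85.

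The slice 3 weeks side was the less stable for *Phgdh*, whose rise no longer passed with library size alone (0.44), without cycling cells (0.48), without adult replicate 1 (0.64) or without slice 3 weeks replicate 1 (0.47). For *Aldh18a1* the *in vitro* fall was lost without adult replicate 2 (-0.68), without *in vitro* replicate 1 (-0.71) and with cells thinned to 1800 UMIs (-0.81), and the slice 3 weeks rise with library size alone (0.64) and without adult replicate 1 (0.60). Donor age and culture cannot be told apart in the comparisons with adult. Medium, culture format, brain region, temperature and isolation cannot be told apart in that of *in vitro* with slice 3 weeks, both from pups.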

How the results depend on the processing

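Of the counts of members called, 118 of 142 under alternative settings and 93 of 120 with a library left out stayed within 1.5 times the value reported, and of the log2 fold changes of named genes 1348 of 1420 and 1125 of 1200 kept their direction and their side of the threshold, counting a value called in neither fit as kept whatever its sign. *In vitro* against adult, members higher were 6 (22.4% of all genes), but 3 with library size alone (16.6%) and 10 with DESeq2 (23.4%). They were 12 with no filter on low counts (19.1%) and 10 with all barcodes (25.4%). Members lower were 8 (28.5%), but 17 with library size alone (38.8%). At slice 1 day members lower were 2, but 1 with DESeq2, thinned cells, the study label as covariate, and without neutrophil-rich cells with or without cycling cells. At slice 1 week members higher were 7, but 4 with thinned cells and 4 without neutrophil-rich and cycling cells, and members lower were 5, but 2 with thinned cells, where the shares of all genes also fell, to 9.37% higher and 6.33% lower (12.7% and 11.0% without neutrophil-rich and cycling cells). At slice 3 weeks the 1 member lower (*Sars2*) became 3 with library size alone and 0 with RLE factors, DESeq2, no filter, all barcodes, thinned cells, the replicate block, and without cycling cells, neutrophil-rich cells or both. Between slice 3 weeks and slice 1 day members lower were 5 (12.8% of all genes), but 1 with thinned cells (10.9%). The causes were not tested. Library size alone also moved the median of all genes by -0.30 *in vitro*, -0.22 at slice 1 week, -0.20 at 3 weeks and -0.12 at 1 day against adult.

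With each library left out in turn, members higher and lower ran from 6 to 12 and 6 to 9 *in vitro*, 17 to 25 and 0 to 2 at slice 1 day, 4 to 8 and 3 to 5 at 1 week, and 16 to 24 and 0 to 3 at 3 weeks, from 0 to 1 and 17 to 23 for *in vitro* against slice 3 weeks, and from 1 to 6 and 0 to 6 for slice 3 weeks against 1 day. The shares of all genes called moved between these fits as well. The difference of *Asns* at slice 1 week changed sign, from 3.87 to -7.41 without replicate 1 (4.42 without replicate 2), since replicate 2 held no *Asns* UMI. Same-numbered libraries deviated together with r from -0.13 to 0.12, so the numbers were not taken as pairs. The replicate block lost *Sars2* (members lower at 3 weeks 0) and *Tars* (*in vitro* against slice 3 weeks), left 3 members higher between slice 3 weeks and 1 day, and changed no other count. Leaving out cells with at least 5 neutrophil marker UMIs was not run, because it removed every cell of slice 1 day replicate 2 and slice 1 week replicate 1. The settings without neutrophil-rich cells were added after seeing the data. The 61 and 148 cells of slice 1 week limit all values of that group.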
